A study of Mus musculus with 9 samples.

Results

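The nuclear genome encodes most subunits of the mitochondrial respiratory chain and of ATP synthase, and their messenger RNA levels were examined in the heart apex of mice given a gene-transfer virus in a leg muscle. Genes were chosen by name alone: symbols beginning Nduf followed by a subunit letter and number, Sdha to Sdhd, Uqcr genes, Cyc1, Cox genes of subunits 5 to 8 and Atp5 genes. The rule found 80 of the 13192 named genes in the deposited table: 36 of complex I, 4 of complex II, 9 of complex III, 14 of complex IV and 17 of complex V. Ndufaf genes, which encode assembly factors, were left out. The rule does not match Cox4i1, Cox4i2 or Ndufab1, which encode subunits as well and are described separately. It does match Atp5s and Atp5sl, which are named like ATP synthase genes but do not encode subunits of it. It also matches Ndufa4, whose product is now assigned to complex IV, and its paralogue Ndufa4l2, both counted here in complex I. Cox7a2l, a factor of respiratory supercomplexes, is matched too and is counted here in complex IV.

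Both groups were male C57BL/6J wild-type mice injected in the right gastrocnemius at 10 weeks of age with 1e+11 viral particles of an adeno-associated virus (AAV). The AAV-Osm group received a vector for oncostatin M, a cytokine of the interleukin-6 family, and the AAV-Null group received the control vector. Hearts were collected 12 weeks later and RNA from the apex was sequenced in 4 AAV-Null and 5 AAV-Osm libraries. The series design names 5 samples per group, and the remaining AAV-Null sample was not analysed here. Neither the serotype nor the promoter of the vectors is stated in the labels, and the Osm transcript itself was not analysed here. Libraries are numbered within each group in the order of deposit. Separate mice per library are not stated in the labels, and the p-values therefore reflect only how far these samples spread, which may be technical.

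Complex I takes electrons from NADH and complex II takes them from succinate, and both pass them to ubiquinone. Complex III moves them to cytochrome c and complex IV to oxygen, while complexes I, III and IV pump protons that drive ATP synthase, complex V. Heart muscle is rich in mitochondria, and its ventricular cells carry muscle-type forms of several complex IV subunits in place of forms found in most tissues. The subunits encoded by the mitochondrial genome were not analysed here, since 0 genes of that genome are listed in the deposited table.

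The libraries held between 11841106 and 30625134 counts. Respiratory chain genes took between 6.65% of the counts, in AAV-Osm 5, and 8.15%, in AAV-Null 4. All 10 cardiomyocyte marker genes on the list used were measured, and their summed level was 101568, 106640, 117631 and 137815 CPM in AAV-Null 1 to 4 and 101210, 135142, 130881, 128593 and 103954 CPM in AAV-Osm 1 to 5. In bulk tissue, fewer cells of a type and less RNA per cell cannot be told apart. CPM gives a gene's counts relative to the library total and is scaled here by edgeR's trimmed-mean (TMM) factors, and a log2 fold change is AAV-Osm over AAV-Null throughout.

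None of the 80 respiratory chain genes passed the test between AAV-Osm and AAV-Null hearts, and all 80 had passed edgeR's filter on low counts. With edgeR's quasi-likelihood test and Benjamini-Hochberg adjustment over all 13192 genes at 0.05, 0 members were called, where 0.121% of all genes were called. By direction, 0 members were higher and 0 lower in AAV-Osm, where 0.0834% of all genes (11) were higher and 0.0379% (5) lower. At an unadjusted p under 0.05 the count was also 0 of 80 members, against 5.97% of all genes. DESeq2 also called 0 members, where it called 0.402% of all genes, and 1 of the 80 members (1.25%) had an unadjusted p under 0.05, against 6.28% of all genes. Limma-voom with library quality weights called 0 members, where it called 1.29% of all genes, and 18 of the 80 members (22.5%) had an unadjusted p under 0.05, against 25.2% of all genes. In 0 members did the CPM values of the 4 AAV-Null and the 5 AAV-Osm libraries fail to overlap, where the groups did not overlap in 2.28% of all genes. The smallest edgeR p among the members was 0.0640, for Cox6a1, with an adjusted p of 0.866.

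The size of the differences was bounded by the data. The standard error of a member's log2 fold change ran from 0.11 to 0.33 with a median of 0.18, near the median of 0.19 over all genes. For 79 of the 80 members the 95% interval of the fold change lay within 2-fold in either direction, and for 53 members it lay within 1.5-fold. Of all 13192 genes, 11609 lay within the wider limit and 6813 within the narrower one. Cox6b2, the least abundant member, known for its testis form of a complex IV subunit, was the exception to the wider limit, with a lower bound of -1.08. The interval of Sdha reached highest, to 0.75. Fold changes ran from -0.39 for Ndufb4 to 0.34 for Sdha.

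Most of these small values were negative. In 58 of the 80 members (72.5%) the log2 fold change was below 0, where 48.1% of all genes were, and the median was -0.12 against 0.01 over all genes. Other scalings of the libraries gave 58 to 60 negative members. The members share libraries, so this is a count and not a test. By complex, negative values were found in 26 of 36 members of complex I, 2 of 4 of complex II, 7 of 9 of complex III, 13 of 14 of complex IV and 10 of 17 of complex V. The median log2 fold changes were -0.12, 0.00012, -0.16, -0.20 and -0.06 in the same order.

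**Figure D1:**
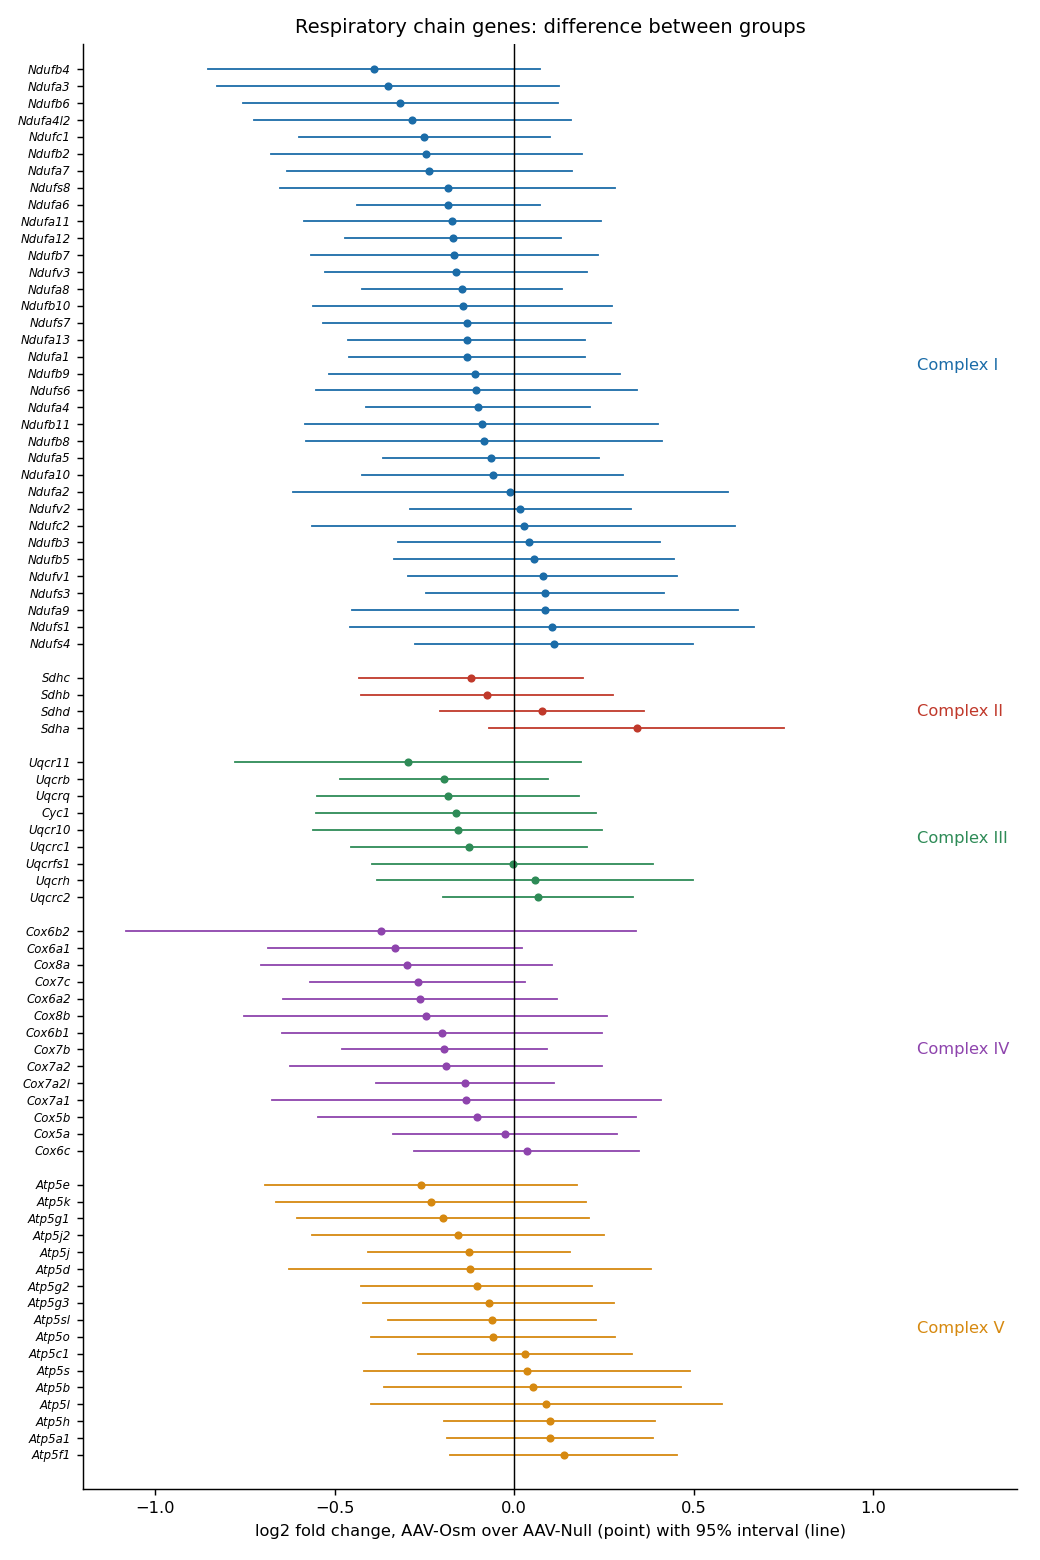
Log2 fold change of 79 of the 80 respiratory chain genes (x axis, AAV-Osm over AAV-Null, point) with its 95% interval (line), ordered by complex. Every interval crosses 0, and 13 of the 14 complex IV points lie to the left of it.

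Complex I members encode subunits of both its matrix arm and its membrane arm. Ndufb4, an accessory subunit of the membrane arm at chr16:37647602-37654368 on the minus strand (mm10), stood at the negative end. Its level was 166, 170, 141 and 206 CPM in AAV-Null 1 to 4 and 91.7, 118, 128, 208 and 107 CPM in AAV-Osm 1 to 5. AAV-Osm 4 was the highest of all 9 libraries although the other AAV-Osm libraries lay below every AAV-Null library. The log2 fold change was -0.39 (SE 0.21, edgeR adjusted p = 0.888).

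Per kilobase of exon, the highest complex I members were Ndufb8 at 2065 CPM per kb, Ndufa3 at 1872 and Ndufb9 at 1829, all accessory subunits of the membrane arm. Ndufb8 was measured at 918, 1021, 1509 and 2017 CPM in AAV-Null 1 to 4 and at 1119, 1586, 1496, 1263 and 981 CPM in AAV-Osm 1 to 5. The AAV-Null libraries spanned the whole range of the AAV-Osm libraries, and the log2 fold change was -0.08 (SE 0.23). Ndufa3 reached 1002 CPM in AAV-Null 4 while the other AAV-Null libraries lay at 638 to 665 CPM. Its AAV-Osm values were 400, 609, 657, 822 and 422 CPM, with a log2 fold change of -0.35 (SE 0.22). Ndufb9 ran from 898 CPM in AAV-Osm 5 to 1646 CPM in AAV-Null 4, with a log2 fold change of -0.11 (SE 0.19).

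Not every complex I gene was highest in AAV-Null 4. Ndufs1, the large iron-sulphur subunit, was lowest there, at 183 CPM, and highest in AAV-Osm 5, at 506 CPM. Ndufv1, the subunit that binds NADH, was highest in AAV-Null 4 at 1243 CPM and lowest in AAV-Null 1 at 758 CPM. These 2 genes were picked out after their values were seen, to show the opposite orders. Their log2 fold changes were 0.11 (SE 0.26) for Ndufs1 and 0.08 (SE 0.17) for Ndufv1.

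Complex II is made of 4 subunits, all encoded in the nucleus, and it was evenly divided in direction. Sdha, the flavoprotein that oxidises succinate, lies at chr13:74322255-74350240 on the minus strand. It was measured at 750, 792, 1073 and 867 CPM in AAV-Null 1 to 4 and at 1439, 1241, 1069, 731 and 1032 CPM in AAV-Osm 1 to 5. AAV-Osm 1 and 2 lay above every AAV-Null library and AAV-Osm 4 lay below every one. The log2 fold change was 0.34 (SE 0.19, 95% interval -0.07 to 0.75, edgeR adjusted p = 0.892), the most positive of the 80 members.

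The other complex II genes had smaller values. Sdhb, the iron-sulphur subunit, was measured at 1297, 1347, 1562 and 1771 CPM in AAV-Null 1 to 4 and at 1173, 1428, 1506, 1794 and 1186 CPM in AAV-Osm 1 to 5, with a log2 fold change of -0.08 (SE 0.16). For the membrane anchors Sdhc and Sdhd the values were -0.12 (SE 0.14) and 0.08 (SE 0.13). Sdhc ran from 544 CPM in AAV-Osm 1 to 750 CPM in AAV-Null 2, and Sdhd from 347 CPM in AAV-Null 1 to 466 CPM in AAV-Osm 5. Groups overlapped in all 4 genes.

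Among complex III genes, the 2 with positive values were Uqcrc2 and Uqcrh. Uqcrc2, a core protein at chr7:120635189-120659523 on the plus strand, had the smallest standard error of the complex. It was measured at 789, 859, 957 and 892 CPM in AAV-Null 1 to 4 and at 939, 906, 861, 875 and 996 CPM in AAV-Osm 1 to 5. The groups overlapped, with a log2 fold change of 0.07 (SE 0.12). Uqcrh, the hinge protein, held 754, 882, 1306 and 1457 CPM in AAV-Null 1 to 4 and 1256, 1399, 1130, 1010 and 926 CPM in AAV-Osm 1 to 5. Here AAV-Null held both the lowest pair and the highest library, and the log2 fold change was 0.06 (SE 0.20).

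Uqcr11, a small subunit at chr10:80402997-80406821 on the minus strand, was the most negative of complex III and its highest member per kilobase, at 2326 CPM per kb. Its values were 934, 986, 1026 and 1577 CPM in AAV-Null 1 to 4 and 704, 1076, 1056, 1173 and 597 CPM in AAV-Osm 1 to 5. AAV-Null 4 stood well above the other AAV-Null libraries, and AAV-Osm 1 and 5 were the lowest of the 9. The log2 fold change was -0.30 (SE 0.22, edgeR adjusted p = 0.934). Uqcrq, another small subunit, ran from 613 CPM in AAV-Osm 5 to 1105 CPM in AAV-Null 4, with -0.18 (SE 0.17). The catalytic subunits Cyc1, cytochrome c1, and Uqcrfs1, the Rieske protein, had log2 fold changes of -0.16 (SE 0.18) and -0.0044 (SE 0.18), and were picked out for their role after the values were seen.

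Complex IV was the complex with the largest share of negative values, and only Cox6c was positive. Cox6c, at chr15:35931976-35938246 on the minus strand, was measured at 1132, 1277, 1342 and 1301 CPM in AAV-Null 1 to 4 and at 1546, 1368, 1034, 1357 and 1163 CPM in AAV-Osm 1 to 5. AAV-Osm held both the highest and the lowest library, and the log2 fold change was 0.03 (SE 0.15). Cox7c, a small subunit, had an edgeR p of 0.0744 (adjusted p = 0.883) with a log2 fold change of -0.27 (SE 0.14). Its values were 614, 694, 778 and 862 CPM in AAV-Null 1 to 4 and 562, 658, 612, 673 and 553 CPM in AAV-Osm 1 to 5. Cox7c was singled out after its values were seen, as the member with the next smallest p after Cox6a1.

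The least abundant member was Cox6b2, at 5.44 CPM per kb. It was measured at 3.41, 5.81, 1.91 and 4.11 CPM in AAV-Null 1 to 4 and at 2.03, 2.89, 2.44, 5.14 and 2.47 CPM in AAV-Osm 1 to 5. The AAV-Null group held the highest and the lowest library. Its log2 fold change was -0.37, with the largest standard error of the members, 0.33. Cox6b1, its counterpart in most tissues, was the third most abundant member at 3688 CPM per kb, with -0.20 (SE 0.21).

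**Figure D2:**
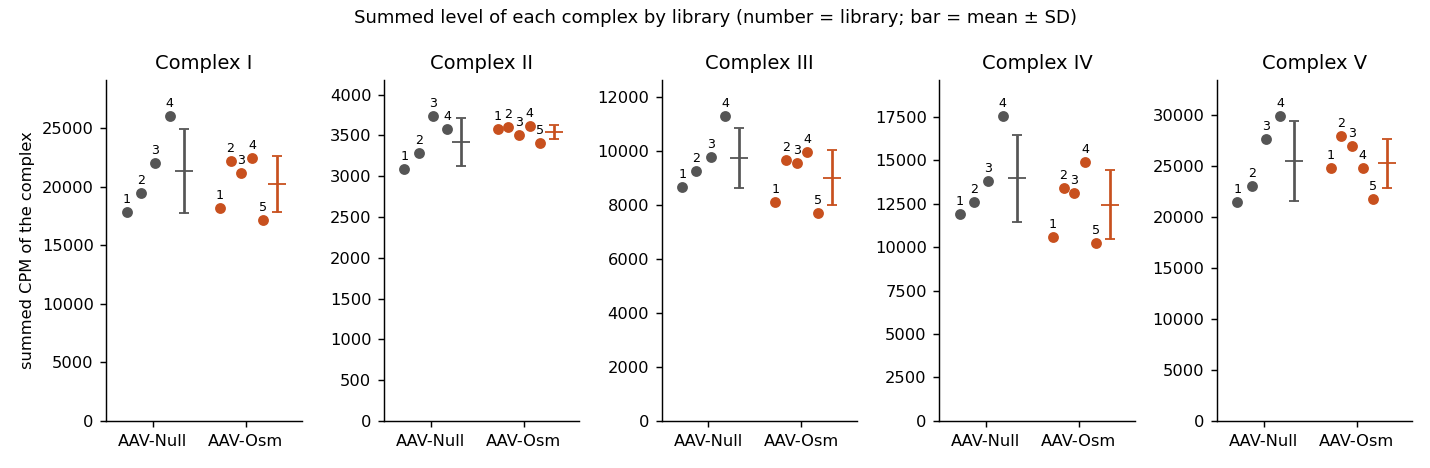
Summed CPM of the members of each complex (y axis, from 0) in each library (numbered point), with the group mean ± SD beside the points. AAV-Null 4 is the highest library for complexes I, III, IV and V, and the groups overlap in every panel.

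Muscle-type and ubiquitous forms of complex IV subunits are encoded by separate genes, and all of these forms were compared per kilobase of exon. Cox6a2, Cox7a1 and Cox8b are the forms of heart and skeletal muscle, and Cox6a1, Cox7a2 and Cox8a are those of most tissues. The ratio of Cox6a2 to Cox6a1 was 15.3 ± 1.13 (SD, n = 4) in AAV-Null and 15.9 ± 2.21 (SD, n = 5) in AAV-Osm. For Cox7a1 over Cox7a2 it was 5.24 ± 0.538 and 5.33 ± 1.33, and for Cox8b over Cox8a 10.7 ± 3.0 and 10.8 ± 1.68. The groups overlapped in all of these ratios, and the difference between group means was below the SD of either group in each.

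Within a pair, both forms lay on the same side of 0. Cox6a1 was measured at 118, 124, 127 and 168 CPM in AAV-Null 1 to 4 and at 94.1, 117, 121, 122 and 78.6 CPM in AAV-Osm 1 to 5. AAV-Null 4 was the highest library and AAV-Osm 1 and 5 the lowest, and the log2 fold change was -0.33 (SE 0.16, 95% interval -0.69 to 0.02). Cox6a2 held 2430, 2397, 2249 and 2986 CPM in AAV-Null 1 to 4 and 1482, 2223, 2335, 2652 and 1789 CPM in AAV-Osm 1 to 5, with -0.26 (SE 0.18). The same libraries were at the ends.

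Cox7a1 was the most abundant member per kilobase, at 3920 CPM per kb. It was measured at 1129, 1169, 1504 and 2233 CPM in AAV-Null 1 to 4 and at 986, 1542, 1616, 1836 and 897 CPM in AAV-Osm 1 to 5. AAV-Null 4 was highest, AAV-Osm 5 lowest, and the log2 fold change was -0.13 (SE 0.25). Cox7a2 had -0.19 (SE 0.20), Cox8b -0.25 (SE 0.23) and Cox8a -0.30 (SE 0.19). In Cox8a the highest library was AAV-Osm 4, at 205 CPM, while the other AAV-Osm libraries lay at 106 to 132 CPM.

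**Figure D3:**
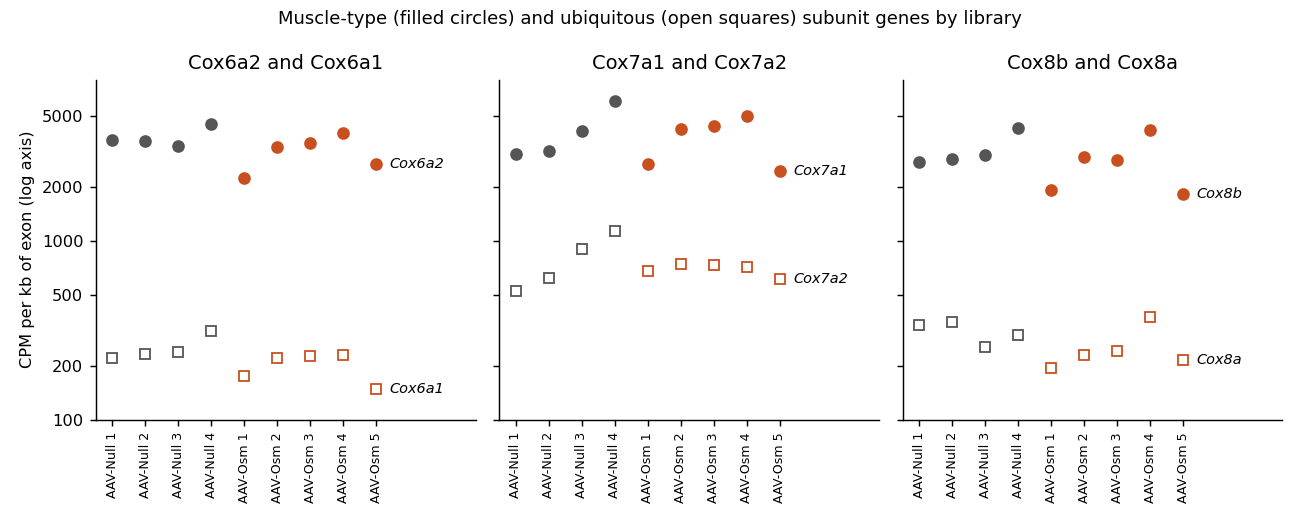
CPM per kb of exon (y axis, log scale) of muscle-type (filled circles) and ubiquitous (open squares) subunit genes in each library, AAV-Null grey and AAV-Osm orange. The muscle-type gene lies above its counterpart in every library.

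The stretch of 180 bases before the RefSeq start of both genes of 2 of these pairs is shown, since muscle-type and ubiquitous genes differed by about the ratios above while neither differed between groups beyond the replicate spread. Sequences are RefSeq's (GRCm38.p6), 5′ to 3′ on the strand of the gene, and were chosen after the values were seen. Cox7a1 is on the plus strand (chr7:30183991-30184170), and Cox7a2 (chr9:79759854-79760033), Cox8b (chr7:140900447-140900626) and Cox8a (chr19:7217617-7217796) are on the minus strand. No promoter of Cox6a2 is shown.
Cox7a1: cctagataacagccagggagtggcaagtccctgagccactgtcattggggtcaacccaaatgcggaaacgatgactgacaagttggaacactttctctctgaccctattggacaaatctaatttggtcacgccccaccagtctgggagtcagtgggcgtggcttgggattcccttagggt
Cox7a2: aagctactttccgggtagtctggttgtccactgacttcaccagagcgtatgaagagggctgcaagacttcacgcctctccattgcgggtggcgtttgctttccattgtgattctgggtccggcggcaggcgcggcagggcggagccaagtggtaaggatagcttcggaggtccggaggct
Cox8b: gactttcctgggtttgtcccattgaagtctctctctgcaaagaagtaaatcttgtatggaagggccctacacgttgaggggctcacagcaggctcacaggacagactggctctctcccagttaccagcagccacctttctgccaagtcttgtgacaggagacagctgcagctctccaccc
Cox8a: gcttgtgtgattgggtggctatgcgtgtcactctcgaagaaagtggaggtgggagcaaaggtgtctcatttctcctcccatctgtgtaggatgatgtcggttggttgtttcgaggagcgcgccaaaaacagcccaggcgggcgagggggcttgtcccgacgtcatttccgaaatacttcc
The muscle-type stretches held 4 (Cox7a1) and 1 (Cox8b) CG dinucleotides, and the ubiquitous ones 12 (Cox7a2) and 11 (Cox8a). Over all members' promoters with a sequence the median was 11, and over those of all tested genes it was 12. The share with 4 or fewer was 9.59% and 19.7% in the same order. The part of CG dinucleotides in the levels of these genes was not tested.

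Cox4i1 and Cox4i2 encode the ubiquitous and the lung-type forms of subunit 4. Cox4i1 was at 3247 ± 581 CPM (SD, n = 4) in AAV-Null and 2979 ± 520 CPM (SD, n = 5) in AAV-Osm, with a log2 fold change of -0.12 (SE 0.17). Cox4i2 was at 22.8 ± 10.6 and 19.8 ± 5.28 CPM, with -0.21 (SE 0.28). Ndufa4l2, a paralogue of Ndufa4 known to be induced in low oxygen, held 33.2 CPM per kb against 1536 for Ndufa4, and their log2 fold changes were -0.28 (SE 0.20) and -0.10 (SE 0.14).

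Complex V held the second most abundant member per kilobase, Atp5b, the catalytic beta subunit at chr10:128083307-128090388 on the plus strand, at 3776 CPM per kb. It was measured at 5511, 5628, 8088 and 8594 CPM in AAV-Null 1 to 4 and at 7377, 8276, 8746, 6020 and 5611 CPM in AAV-Osm 1 to 5. Each group held low and high libraries, and the log2 fold change was 0.05 (SE 0.19). Atp5f1, the b subunit of the stalk, had the most positive value of the complex, 0.14 (SE 0.15), and Atp5e, the small epsilon subunit, the most negative, -0.26 (SE 0.20). Atp5e ran from 555 CPM in AAV-Osm 5 to 1177 CPM in AAV-Null 4. Atp5k, the e subunit, ran from 555 CPM to 1228 CPM in the same libraries, with -0.23 (SE 0.20). Atp5s, which is not a subunit of the synthase, stood at 13.8 CPM per kb with 0.04 (SE 0.21).

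The c subunit, which forms the rotating ring of ATP synthase, has 3 genes that encode the same mature protein with different targeting peptides. Per kilobase, Atp5g3 stood at 2605 CPM per kb, Atp5g1 at 2036 and Atp5g2 at 244. Atp5g3 was measured at 1543, 1692, 2187 and 2330 CPM in AAV-Null 1 to 4 and at 1905, 2094, 1984, 1506 and 1733 CPM in AAV-Osm 1 to 5. AAV-Osm values lay between or just below the AAV-Null values, and the log2 fold change was -0.07 (SE 0.16). For Atp5g1 it was -0.20 (SE 0.19) and for Atp5g2 -0.10 (SE 0.15). The ratio of Atp5g3 to Atp5g2 was 10.5 ± 0.295 (SD, n = 4) in AAV-Null and 10.9 ± 1.49 (SD, n = 5) in AAV-Osm, and that of Atp5g1 to Atp5g2 was 8.71 ± 1.02 and 8.02 ± 1.10.

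The 180 bases before Atp5g2 (chr15:102671048-102671227, minus strand) and Atp5g3 (chr2:73911327-73911506, minus strand) are shown because each holds a searched motif, in capitals: the NRF1 motif in Atp5g2 and the ERR motif, read on the other strand, in Atp5g3.
Atp5g2: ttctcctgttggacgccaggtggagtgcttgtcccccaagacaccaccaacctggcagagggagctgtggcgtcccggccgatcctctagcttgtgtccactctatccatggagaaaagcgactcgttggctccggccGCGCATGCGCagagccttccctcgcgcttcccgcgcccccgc
Atp5g3: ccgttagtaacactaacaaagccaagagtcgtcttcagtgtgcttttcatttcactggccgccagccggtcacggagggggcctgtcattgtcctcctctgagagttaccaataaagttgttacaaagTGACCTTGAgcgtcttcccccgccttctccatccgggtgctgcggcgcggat
Motifs were searched on both strands in 300 bases, from 250 before to 50 after the RefSeq start, in the 67 members with a promoter sequence. The full NRF1 motif, the letters GCATGCGC preceded by GC, was found in 5 members (7.46%: Ndufa11, Uqcrc1, Cox6a1, Atp5g2 and Atp5k), in 2.21% of tested genes and in 0.971% of all 32851 promoters. NRF1 is a factor known for respiratory genes. The shorter form GCATGCGC, which lies within the full motif, was found in 10 members (14.9%), against 5.65% of tested genes and 2.71% of all promoters. The motif of the estrogen-related receptors (ERR), TCAAGGTCA, was found in 2 members (2.99%: Sdhd and Atp5g3), against 0.325% of tested genes and 0.423% of all promoters. Its core AAGGTCA, which lies within it, was found in 7 members (10.4%), against 3.90% and 4.72%. GABP/ETS (CCGGAAGT) was found in 5 members (7.46%), against 8.75% and 3.89%. YY1 (AAGATGGC) was found in 11 members (16.4%), against 5.14% and 2.75%, and 9 of its 12 matches lay after the start, at 23 to 39 bases. A match describes letters and is no evidence of binding. Promoters of Ndufa2, Ndufa4l2, Ndufb9, Ndufs1, Sdhc, Cyc1, Uqcrb, Uqcrc2, Uqcrq, Cox6a2, Cox6c and Atp5a1 were not used here.

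The summed level varied more between libraries than between groups. Summed over all 80 members, the level was 62986, 67613, 77059 and 88316 CPM in AAV-Null 1 to 4 and 65283, 76764, 74387, 75764 and 60325 CPM in AAV-Osm 1 to 5. Group means were 73993 ± 11201 CPM (SD, n = 4) and 70504 ± 7294 CPM (SD, n = 5). The difference between them was less than the SD of either group, and the groups overlapped. By complex the means ± SD in AAV-Null and AAV-Osm were 21338 ± 3565 and 20243 ± 2414 CPM for complex I, 3419 ± 293 and 3541 ± 85.3 CPM for complex II, and 9741 ± 1119 and 8999 ± 1016 CPM for complex III. For complex IV they were 13951 ± 2517 and 12442 ± 1979 CPM, and for complex V 25543 ± 3928 and 25280 ± 2375 CPM.

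AAV-Null 4 was the highest of the 9 libraries for 46 of the 80 members. AAV-Osm 5 was the lowest for 28, and AAV-Null 1 and AAV-Osm 1 were each the lowest for 19. Such counts over all genes are not given here, and whether this order is particular to the members was not tested. The median member lay 0.32 above its mean over libraries on the log2 scale in AAV-Null 4, and -0.27, -0.24 and -0.14 from it in AAV-Osm 5, AAV-Osm 1 and AAV-Null 1. Complex II did not share this order, with a median of -0.13 in AAV-Null 4 and 0.14 in AAV-Osm 5. The ratio of the highest to the lowest library ran from 1.22 for Cox7a2l, a factor of respiratory supercomplexes, to 3.04 for Cox6b2, with a median of 1.83.

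Among single libraries left out, AAV-Null 4 moved the negative lean most. Without AAV-Null 4 the median log2 fold change was -0.0098 and 44 of 80 members were negative, and without AAV-Null 1 the median was -0.20 with 66 negative. Without AAV-Osm 1 the median was -0.07 with 57 negative, and without AAV-Osm 5 it was -0.07 with 58 negative. Without both AAV-Null 4 and AAV-Osm 5 the median turned to 0.05 with 28 negative, and without AAV-Null 3 and AAV-Null 4 to 0.04 with 33. For the median member, AAV-Null 4 and 3 were the highest AAV-Null libraries and AAV-Osm 5 the lowest AAV-Osm library. A rise of the median without these pairs therefore followed from the choice of libraries. No pair in the opposite direction was left out. With limma-voom's quality weights, which gave AAV-Null 4 a weight of 0.344 and AAV-Null 2 one of 3.35, the median was 0.03 with 34 negative. The smallest adjusted p of a member in any alternative was 0.0688, for Ndufb6 in limma-voom, with a log2 fold change of -0.61. Ndufb6, an accessory subunit singled out after its values were seen, had an edgeR log2 fold change of -0.32 (SE 0.20).

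**Figure D4:**
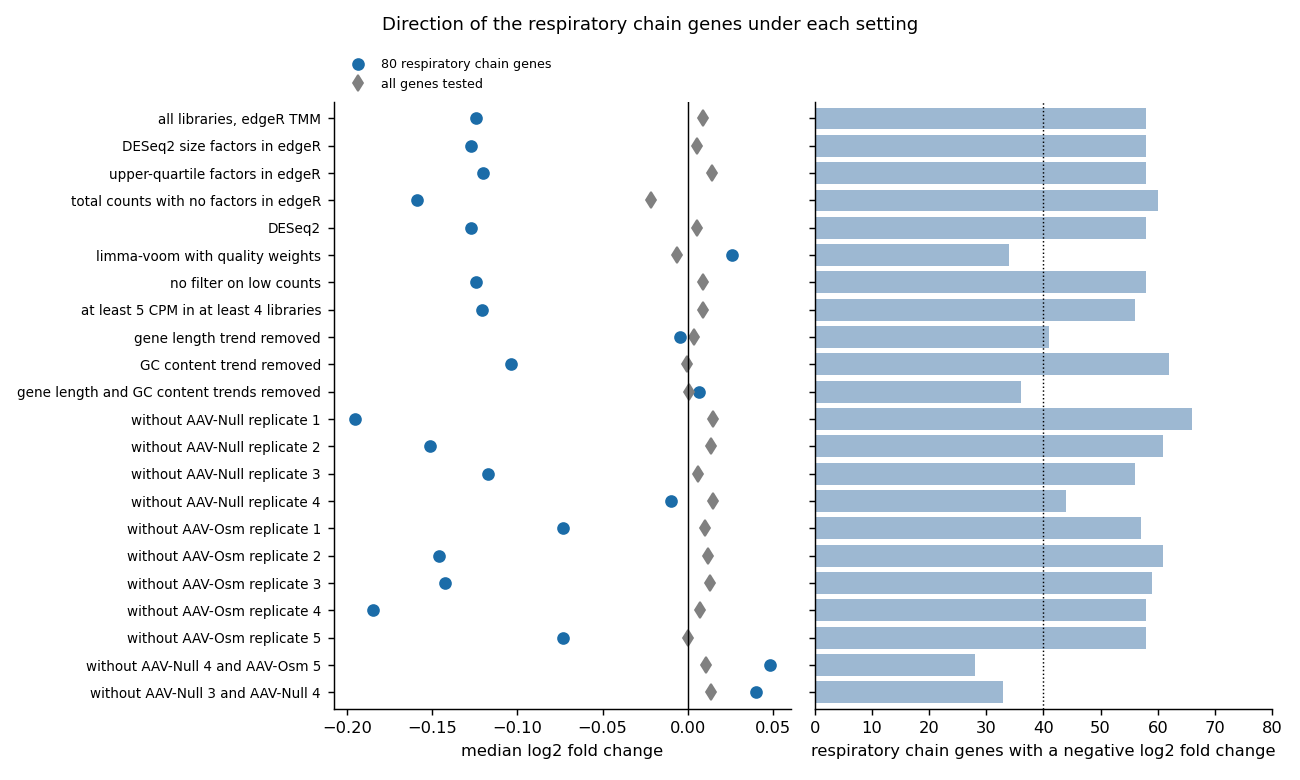
Left, median log2 fold change of the respiratory chain genes (circles) and of all genes tested (diamonds) under each setting. Right, the number of respiratory chain genes with a negative log2 fold change, with a dotted line at 40; the medians run from -0.20 to 0.05.

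Several lists of other cells' markers were highest in AAV-Null 4 as well, and others were not. The summed level of 7 fibroblast markers was 2042 CPM there, 1223 to 1519 CPM in the other AAV-Null libraries and 983 to 1764 CPM in the AAV-Osm libraries, and that of 5 mesothelial markers was 132 CPM there, 42.2 to 51.1 CPM in the other AAV-Null libraries and 9.69 to 44.4 CPM in AAV-Osm. Macrophage and leukocyte markers, 7 of 8 measured, were at 216, 223, 371 and 516 CPM in AAV-Null 1 to 4 and between 248 and 349 CPM in the AAV-Osm libraries, so AAV-Null held both ends. Liver-type markers were at 4.16, 21, 147 and 74.5 CPM in AAV-Null 1 to 4 and at 2.62 to 49.2 CPM in AAV-Osm, and the groups overlapped. Skeletal muscle markers, 4 of 8 measured, were lowest in AAV-Null 4, at 691, 565, 245 and 197 CPM in AAV-Null 1 to 4. They were at 331 to 626 CPM in AAV-Osm. The 7 smooth muscle and pericyte markers were at 302, 279, 260 and 222 CPM in AAV-Null 1 to 4 and at 218 to 266 CPM in AAV-Osm. The 7 endothelial markers were highest in AAV-Null 4, at 976, 1010, 1114 and 1273 CPM in AAV-Null 1 to 4 and at 875 to 1182 CPM in AAV-Osm. Atrial cardiomyocyte markers, 3 of 5 measured, were at 264 to 525 CPM in AAV-Null and at 310 to 775 CPM in AAV-Osm, highest in AAV-Osm 2. Adipocyte, brown adipocyte and erythroid lists had 1 measured gene each and are not described. The cardiomyocyte sum was also highest in AAV-Null 4 and was low in AAV-Null 1, AAV-Osm 1 and AAV-Osm 5. The part of these cells in the respiratory chain values was not tested.

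Gene length moved with the direction. Of the 52 members with up to 1000 bases of exon, 44 (84.6%) had a negative log2 fold change and the median was -0.14. Of the 28 longer members 14 were negative and the median was 0.0061. Genes of the whole table, members included, showed the same order, with 703 of 924 short genes (76.1%) negative at a median of -0.14, and 46.0% of longer genes negative at a median of 0.02. Across members, Spearman's rho between length and log2 fold change was 0.56 (n = 80 genes), and it was 0.21 across all genes; genes share libraries and are not independent. The members were short, with a median of 708 bases against 2936 for all genes.

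The direction also differed by GC content. Of the 40 members above the members' median GC of 52.5%, 37 were negative, and of the 40 at or below it, 21 were. Spearman's rho was -0.37 over the members and -0.16 over all genes with a value. AAV-Null 4 was the highest library for 30 of the 40 members of high GC and for 16 of the 40 others. With the length trend of each library removed, the median was -0.0046 and 41 members were negative. With the GC trend alone removed, the median was -0.10 and 62 members were negative, more than the 58 without it. With length and GC trends both removed, the median was 0.0066 and 36 were negative. The splits by length and GC were chosen after the values were seen, and the part of length and GC in the result was not tested.

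**Figure D5:**
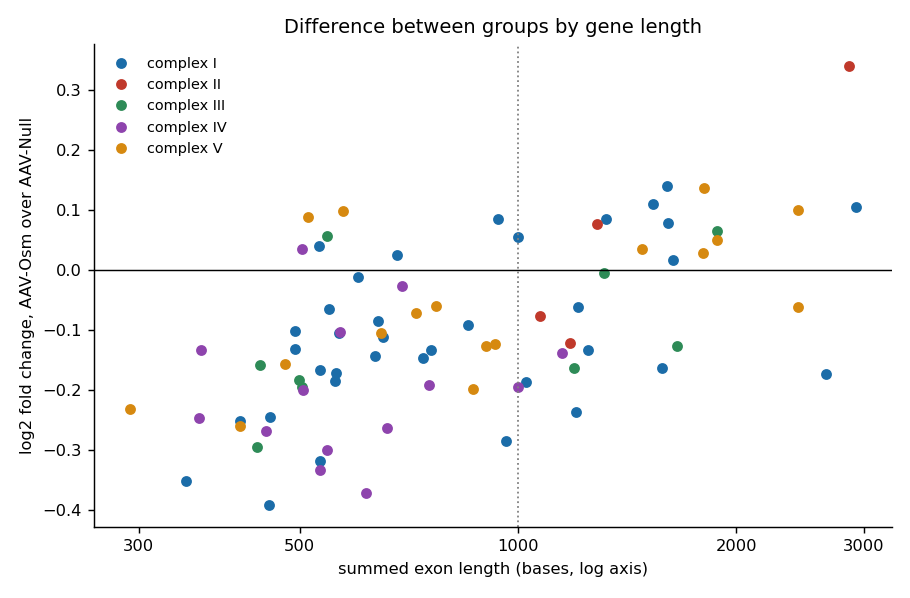
Log2 fold change of each respiratory chain gene (y axis, AAV-Osm over AAV-Null) against its summed exon length in bases (x axis, log scale), coloured by complex, with a dotted line at 1000 bases. To the left of the line 44 of 52 genes lie below 0, and to the right 14 of 28 do.

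Other genes of the pathway gave no calls either. Of 51 listed assembly factors, which build the complexes but are no part of them, 48 were tested and 0 passed, with 26 negative and 22 positive values and a median of -0.0075. The ends were Coa6, a copper-delivery factor of complex IV, at -0.28 (SE 0.16) and Taco1, a translational activator of a complex IV subunit, at 0.42 (SE 0.20). Of 17 listed symbols of carriers and ubiquinone synthesis genes 16 were tested and 0 passed, with a median of 0.04. The 17 include both Coq8a and its older name Adck3. Cycs, which encodes cytochrome c, was at 650 ± 161 CPM (SD, n = 4) in AAV-Null and 625 ± 91.7 CPM (SD, n = 5) in AAV-Osm, with a log2 fold change of -0.06 (SE 0.18). Of 9 further symbols listed outside the rule, 6 were tested, all negative, with a median of -0.17 and 0 calls. Ndufab1 was among them at -0.06 (SE 0.15). The 9 symbols include older and newer names of the same gene. They also include Atpif1, which encodes an inhibitor of ATP synthase and not a subunit.

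Regulators of respiratory genes had mostly positive values. All 19 on the list were tested and 0 passed. Of these, 14 were positive and 5 negative, with a median of 0.10. Over all genes 48.1% were negative, with a median of 0.01. The part of gene length in these directions was not tested. Ppargc1a, the coactivator of mitochondrial biogenesis, was at 117 ± 22.8 CPM (SD, n = 4) in AAV-Null and 119 ± 25 CPM (SD, n = 5) in AAV-Osm, with a log2 fold change of 0.02 (SE 0.18). For its relative Ppargc1b the value was 0.16 (SE 0.22). Among its partner factors it was -0.19 (SE 0.16) for Esrra, 0.18 (SE 0.12) for Esrrg and -0.04 (SE 0.19) for Nrf1. Tfam, which packages mitochondrial DNA, had 0.26 (SE 0.19). Nrip1, a corepressor, had the largest value, 0.72 (SE 0.27, edgeR adjusted p = 0.706). The 15 markers of mitochondrial mass outside the chain, such as porins and import proteins, had a median of 0.09, with 0 calls. Their summed level ran from 5096 to 5672 CPM over AAV-Null libraries and from 5266 to 6187 CPM over AAV-Osm libraries, and AAV-Null 4, at 5228 CPM, was not the highest library.

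Counts of some members are uncertain. The exons of 21 members overlap those of another gene in GENCODE M21, among them Cox6a2 (with Itgad), Atp5f1 (Wdr77), Uqcrc2 (Pdzd9) and Ndufa4l2 (Shmt2). Overlaps on the same strand were those of Ndufb2 (Gm42420), Ndufb8 (Gm20538) and Ndufb9 (Gm49356). Whether strand was used in counting, and how reads that match processed copies of these genes were treated, is not given in the sources used here.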

How the data were processed

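RNA from the heart apex was sequenced in 9 libraries, 4 AAV-Null and 5 AAV-Osm. The authors deposited 1 table of read counts per gene, not normalized. Per the submitters' processing notes, reads were mapped to mm10 with STAR 2.5.2b and counted with featureCounts of Subread 1.5.1. Which annotation was counted, whether strand was used and how multimapping reads were handled is not given in the sources used here. Of 17333 lines, 4141 are blank and were left out, and the rest name 13192 genes. Total counts per library ran from 11841106 to 30625134.

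Counts as deposited were fitted with edgeR 4.0.16 in R 4.3.3 (quasi-likelihood F test, robust, two-sided, TMM factors, group as the only term), with p-values adjusted over all genes at a threshold of 0.05. The low-count filter of edgeR removed 0 genes. A standard error is the log2 fold change divided by the square root of F. CPM per kb divides by the summed exon length of the deposited table. DESeq2 1.42.0, limma 3.58.1, other scalings and filters, trends on length and GC and leaving out libraries were the alternatives; 503 genes without a GC value were set to the median. The edgeR fit was tested on simulated counts, with 50 genes changed at each of 4 folds. It called 7 of 50 genes changed 1.5-fold, 31 of 50 at 2-fold, 45 of 50 at 3-fold and 50 of 50 at 4-fold. Most changes of 1.5-fold were thus missed.

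Members named with values are, in each complex, the 3 highest and the lowest per kb and the most positive and most negative, with isoform pairs and c-subunit genes; every other gene given with values comes from the lists or was chosen after its values were seen. Groups come from the treatment label. The members and lists were chosen with earlier results of these data known. The 2 GC alternatives were added after the data were seen. The values of 1 member, which is in every count, are not reported here.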

Additional observations from a re-analysis of the deposited data

Results flagged for a closer look

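In 10 of the 170 tested groups of member or complex values, 1 library lay far from the other libraries of its group, where chance gives about 1 in 20, and AAV-Null 4 was that library in 7 of them. Members are measured in the same libraries, so these are not separate events. In AAV-Null 4, Ndufa3 stood at 1002 CPM where the other AAV-Null libraries lay at 638 to 665 CPM. Also in complex I, Ndufb2 stood at 434 CPM against 282 to 302 CPM, and Ndufv3 at 781 CPM against 537 to 572 CPM. In complex III, Cyc1 stood at 2094 CPM against 1612 to 1651 CPM, and Uqcr11 at 1577 CPM against 934 to 1026 CPM. Cox8b of complex IV was at 1558 CPM against 1010 to 1101 CPM, and Atp5d of complex V, the delta subunit, at 1972 CPM against 1233 to 1326 CPM.

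The other 3 were in AAV-Osm 4. Cox6b2 was high there, at 5.14 CPM against 2.03 to 2.89 CPM in the other AAV-Osm libraries, and so was Cox8a, at 205 CPM against 106 to 132 CPM. Atp5l, the g subunit of ATP synthase, was low, at 183 CPM against 324 to 370 CPM.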

How the results depend on the processing

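No member was called under any of the 21 alternatives, with adjusted p from 0.0688 upward over them. Over all genes, 16 were called in the main analysis, 53 by DESeq2, 170 by limma-voom, 5 with at least 5 CPM in at least 4 libraries and 4 to 11 when each library was left out in turn. Negative values numbered 58 of 80 members, 34 under limma-voom, 36 with length and GC trends removed, 28 when AAV-Null 4 and AAV-Osm 5 were left out, and 33 when AAV-Null 3 and 4 were. As stated above, fewer negative values without these pairs followed from the choice of libraries, and no opposite pair was left out. The median of complex V moved to 0.11 under limma-voom and to 0.13 when AAV-Null 3 and 4 were left out, and that of complex II to 0.12 in the latter. The median over all genes stayed within 0.1 of 0 under every scaling.

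Of 42 named genes, 14 kept their sign in every alternative that gave a value. With limma-voom, log2 fold changes on the other side of 0 were Ndufb8 0.38, Ndufb9 0.13, Sdhb 0.064, Uqcrq 0.020, Cox6b1 0.018, Cox7a1 0.22, Cox7a2 0.19, Atp5g2 0.11, Atp5g3 0.16, Atp5s -0.26, Cox4i1 0.033, Cox4i2 0.28, Ndufab1 0.16, Cycs 0.18 and Ppargc1a -0.16. With the length trend removed they were Ndufa4 0.045, Ndufb8 0.076, Ndufb9 0.023, Cox7a1 0.053, Atp5g2 0.031, Atp5g3 0.065, Ndufab1 0.064 and Ppargc1a -0.020; with the GC trend removed, Cox6c -0.0062 and Ppargc1a -0.0030; with both, Ndufa4 0.021, Ndufb8 0.079, Ndufb9 0.040, Sdhb 0.0078, Cox7a1 0.064, Atp5g2 0.060, Atp5g3 0.040, Cox4i1 0.023, Ndufab1 0.045 and Ppargc1a -0.038. Leaving out AAV-Null 4 with AAV-Osm 5 gave Ndufa4l2 0.025, Ndufb8 0.25, Ndufb9 0.13, Sdhb 0.073, Sdhd -0.015, Uqcr11 0.030, Uqcrq 0.014, Cox6b1 0.076, Cox7a1 0.24, Cox7a2 0.077, Cox8b 0.032, Atp5e 0.024, Atp5g1 0.046, Atp5g2 0.053, Atp5g3 0.051, Atp5k 0.039, Atp5s -0.23, Cox4i1 0.048, Cox4i2 0.30, Ndufab1 0.035, Cycs 0.060 and Ppargc1a -0.036. Leaving out AAV-Null 3 and 4 gave Ndufb8 0.41, Ndufb9 0.16, Sdhb 0.10, Uqcrq 0.029, Cox6b1 0.045, Cox7a1 0.26, Cox7a2 0.29, Atp5e 0.029, Atp5g2 0.13, Atp5g3 0.19, Atp5s -0.23, Cox4i1 0.068, Cox4i2 0.32, Ndufab1 0.20, Cycs 0.28, Ppargc1a -0.20 and Ppargc1b -0.18. With total counts and no factors the value was Ppargc1a -0.031. When each library was left out in turn, the genes that crossed 0 ran Uqcrh from -0.087 to 0.22, Cox6c from -0.037 to 0.11, Atp5b from -0.045 to 0.17, Nrf1 from -0.16 to 0.058, Ndufab1 from -0.15 to 0.034, Cycs from -0.18 to 0.074, Ppargc1a from -0.11 to 0.12, Ndufb8 from -0.23 to 0.17, Ndufb9 from -0.22 to 0.055, Sdhb from -0.18 to 0.015, Cox7a1 from -0.26 to 0.12, Cox7a2 from -0.34 to 0.033, Atp5g3 from -0.17 to 0.029, Atp5s from -0.11 to 0.15, Cox4i1 from -0.22 to 0.00097 and Cox4i2 from -0.35 to 0.16. The cause of these sign changes was not tested.

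Without AAV-Osm 4, 9 members (11.2%) had an unadjusted edgeR p under 0.05, against 8.89% of the genes tested there, and the smallest adjusted p was 0.284, for Ndufb4. The filter at 5 CPM removed Cox6b2, and the part of depth in its spread was not tested. No paired analysis was run because the labels give no pairing between AAV-Null and AAV-Osm samples.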
